A study of Mus musculus with 12 samples.

Results

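The genes that set apart CD4 and CD8 T cells were followed here through open chromatin in regulatory T cells (Treg) with and without the transcription factor Ikaros, which Ikzf1 encodes. They are the coreceptor genes Cd4, Cd8a and Cd8b1, the CD4-lineage factor gene Zbtb7b (ThPOK), the Runx genes Runx1 and Runx3, and Cbfb, which encodes the shared partner of the Runx proteins. Every open chromatin region that overlapped one of these 7 gene bodies, or the 20 kb on either side, was taken by position and without regard to its values. That gave 96 of the 118680 regions in the table, of which 37 lay at Runx1, 19 at Runx3, 13 at Cd4, 11 at Zbtb7b, 6 at Cd8a, 5 at Cd8b1 and 5 at Cbfb, with no region shared between 2 windows. Coordinates are mouse build mm9, and the Runx1, Cd4 and Zbtb7b genes lie on the minus strand.

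ATAC-seq, in which the Tn5 transposase inserts sequencing adapters into accessible DNA, was carried out on sorted YFP+ Treg, 100000 cells a library. WT stands for Foxp3-YFP-Cre animals and Ikzf1-cko for Ikzf1-fl-Foxp3-YFP-Cre animals, which are homozygous for the floxed Ikzf1 allele. Both genotypes carry the Foxp3-driven Cre with its YFP reporter, so Ikzf1 is deleted only in cells that have expressed Foxp3. The methods name spleen and lymph nodes as the source of purified Treg. Treg were processed straight after sorting (ex vivo) or once they had spent 4 hr on plate-bound anti-CD3 and anti-CD28 (stimulated), which gave 4 groups of 3 libraries. Sorted cells were divided between the 2 states, so stimulated and ex vivo libraries can come from the same sort, and the ages and sexes of the mice are not given for these libraries. A read in a region counts the cells that are open there and how often each is cut, so fewer open cells and less opening per cell cannot be told apart.

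The 12 libraries held 4808916 to 15355521 reads in regions, and every Ikzf1-cko library was larger than every WT library, so that depth and genotype cannot be told apart. WT stimulated libraries stood apart in that the weakest 20% of tested regions took 6.90 to 8.37% of their reads, against 2.02 to 3.99% in the other 9 libraries. Values below are scaled to library totals, and the value after a loess fit of each library on region abundance is given beside a call that it ends or turns. Of 6 Treg markers 5 had a region over a start site (Foxp3, Il2ra, Ctla4, Tnfrsf18 and Tnfrsf4, but not Ikzf2), as did 3 of 3 T cell markers and 0 of 4 B cell markers. Accessibility at the Ikzf1 start was 16.4 to 20.1 FPKM in WT and 18.2 to 24.2 FPKM in Ikzf1-cko, which does not check the deletion. FPKM is reads per kilobase of region, relative to all reads counted in regions.

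During thymic development a T cell precursor that carries both coreceptors keeps one and silences the other: ThPOK upholds the CD4 program and holds down Runx3, while Runx complexes with Cbfb silence Cd4 and Zbtb7b and open the Cd8 genes in the CD8 lineage. Most Treg belong to the CD4 lineage, in which Cd4 and Zbtb7b are active and the Cd8 genes are silent, and Runx1 with Cbfb also binds Foxp3. Ikaros binds DNA through zinc fingers, can both activate and repress, and has been tied to Cd8 gene expression and to Cd4 silencing in thymocytes.

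The sequences below are the 300 bases around the middle of 7 regions on which the results turn, read from the mm9 plus strand, 5′ to 3′. Motifs were sought on both strands as TGTGGT or TGCGGT (the Runx core), GGGAA (the Ikaros core) and TGACTCA (AP-1, whose other strand reads TGAGTCA). The first is the Cd4 first intron 2.22 kb from the start (OCR_96700), shown because it held more Runx letters than any other of the 96 windows. Capitals mark the Runx core in it, in the Runx3 distal promoter (OCR_82532) and in the Runx1 intron 4.04 kb from the start that fell most on stimulation (OCR_47851).
OCR_96700, Cd4, chr6:124835866-124836165: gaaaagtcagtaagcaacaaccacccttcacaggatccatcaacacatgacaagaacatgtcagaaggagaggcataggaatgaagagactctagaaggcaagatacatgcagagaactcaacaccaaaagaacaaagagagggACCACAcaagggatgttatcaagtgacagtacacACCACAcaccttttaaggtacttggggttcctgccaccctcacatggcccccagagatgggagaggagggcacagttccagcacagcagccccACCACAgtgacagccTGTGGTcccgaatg
OCR_82532, Runx3, chr4:134676154-134676453: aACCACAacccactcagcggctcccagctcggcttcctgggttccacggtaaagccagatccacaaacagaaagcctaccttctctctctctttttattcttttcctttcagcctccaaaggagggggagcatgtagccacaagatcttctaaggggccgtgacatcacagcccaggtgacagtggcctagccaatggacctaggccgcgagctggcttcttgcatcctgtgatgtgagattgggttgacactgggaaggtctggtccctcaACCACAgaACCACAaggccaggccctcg
OCR_47851, Runx1, chr16:92822126-92822425: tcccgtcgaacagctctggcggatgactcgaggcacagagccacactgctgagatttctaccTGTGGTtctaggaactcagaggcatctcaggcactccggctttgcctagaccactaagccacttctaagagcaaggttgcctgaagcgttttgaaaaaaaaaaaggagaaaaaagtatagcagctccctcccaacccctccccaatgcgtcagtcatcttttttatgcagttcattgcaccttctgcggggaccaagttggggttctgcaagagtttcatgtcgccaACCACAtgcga

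Capitals mark AP-1 in the next 3, which are the Runx1 introns 2.29 kb (OCR_47852), 205 kb (OCR_47819) and 172 kb (OCR_47823) from the distal start that were more accessible in Ikzf1-cko, OCR_47819 in stimulated Treg only, and the Ikaros core in the last, the region between Cd8b1 and Cd8a (OCR_93953) that was less accessible.
OCR_47852, Runx1, chr16:92823873-92824172: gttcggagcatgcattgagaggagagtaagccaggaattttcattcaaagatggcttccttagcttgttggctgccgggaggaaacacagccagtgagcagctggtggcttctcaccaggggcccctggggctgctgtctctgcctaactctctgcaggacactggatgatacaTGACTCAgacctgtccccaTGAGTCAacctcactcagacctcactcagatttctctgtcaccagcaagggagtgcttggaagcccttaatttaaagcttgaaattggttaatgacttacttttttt
OCR_47819, Runx1, chr16:92621055-92621354: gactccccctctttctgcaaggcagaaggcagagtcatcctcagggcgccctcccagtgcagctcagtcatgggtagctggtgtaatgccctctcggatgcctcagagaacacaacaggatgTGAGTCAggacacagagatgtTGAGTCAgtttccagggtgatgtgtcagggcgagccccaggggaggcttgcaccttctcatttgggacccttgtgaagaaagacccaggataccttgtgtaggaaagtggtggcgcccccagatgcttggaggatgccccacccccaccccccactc
OCR_47823, Runx1, chr16:92654127-92654426: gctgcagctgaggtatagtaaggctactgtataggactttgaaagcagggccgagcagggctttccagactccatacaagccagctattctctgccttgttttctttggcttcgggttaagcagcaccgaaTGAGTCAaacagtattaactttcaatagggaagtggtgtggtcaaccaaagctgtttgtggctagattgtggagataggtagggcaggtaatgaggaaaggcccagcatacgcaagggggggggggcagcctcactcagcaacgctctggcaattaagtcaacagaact
OCR_93953, between Cd8b1 and Cd8a, chr6:71302216-71302515: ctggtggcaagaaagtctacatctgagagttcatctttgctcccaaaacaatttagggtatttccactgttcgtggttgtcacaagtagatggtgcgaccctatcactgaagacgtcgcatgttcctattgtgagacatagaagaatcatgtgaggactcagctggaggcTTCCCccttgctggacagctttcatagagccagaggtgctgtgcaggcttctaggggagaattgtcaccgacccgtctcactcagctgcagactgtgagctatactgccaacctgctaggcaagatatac

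Of the 69957 tested windows 0.180% held at least 4 Runx cores, as the Cd4 intron did, 0.943% held at least 3, as the Runx3 promoter did, and 0.972% held at least 2 AP-1 motifs, as OCR_47852 and OCR_47819 did. Over the 73 tested regions of the 7 genes, 22 held a Runx core (30.1%, against 30.0% of all tested windows), 49 the Ikaros core (67.1% against 59.3%) and 11 AP-1 (15.1% against 10.6%). OCR_47823 also held 1 Runx core and 1 Ikaros core, which are not marked. The Runx1 regions OCR_47834 and OCR_47829, which also passed as higher in Ikzf1-cko ex vivo, held 0 AP-1 motifs. The Cd8a region OCR_93956, lower in Ikzf1-cko, held 0 Ikaros cores. A match in these letters is a description of the sequence and not a bound site. These 73 regions were somewhat stronger than the rest, with a median of 12.7 FPKM over the 12 libraries against 9.77 FPKM over all tested regions.

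A region was tested where it reached 3.6 CPM, the count scaled by the library total alone, in at least 3 libraries, by edgeR's quasi-likelihood test over all 12 libraries and with Benjamini-Hochberg adjustment over all 69957 regions. It is said to be called where its adjusted p was under 0.05 and its fold change over 2, which is 1 on the log2 scale, and to pass where only the adjusted p was under 0.05. Of the 96 regions 73 were tested, with means over the 12 libraries of 4.21 to 38.8 FPKM, and 23 were too weak, with means of 4.07 to 10.1 FPKM: 10 at Runx1, 7 at Runx3, 3 at Cd8a, 2 at Cd8b1 and 1 at Cbfb. Of the 73 tested regions 43 reached 3.6 CPM in all 12 libraries. The others could enter through the group in which they were high, so their calls are not independent of the filter, and this holds for 6 of the 9 regions called in any comparison. For these 6 the libraries that reached 3.6 CPM and the value with no filter are given beside the call. By annotation 51 of the 96 lay in introns, 24 touched an exon and 21 were intergenic.

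Among regions that reached 3.6 CPM in all 12 libraries, Ikzf1-cko Treg were less accessible than WT over the Cd8b1 start ex vivo (-0.61). Among the same regions they were more accessible at the Runx1 region OCR_47852 when stimulated (1.12) and at the distal start of Runx3 ex vivo (0.38). The Cd4 start, which reached 3.6 CPM in 11 of the 12 libraries, did not pass in either state. Ex vivo, 1 region was called higher in Ikzf1-cko (0.588% of all tested regions were) and 2 lower (4.04%), and 9 passed as higher (8.78%) and 4 as lower (12.7%). With 3.6 CPM required in all 12 libraries 43 regions were tested and 0 were called ex vivo. Of all 34257 regions tested in that way 163 were called higher and 176 lower. In stimulated Treg 1 was called higher (1.16%) and 2 lower (20.2%), and 14 passed as higher (20.4%) and 9 as lower (30.7%). As shares of the 73, the counts of lower regions were under those of all tested regions and the counts of higher ones were not far from them. In each state the genotypes' FPKM did not overlap at 16 of the 73 as higher (21.9%) and 12 as lower (16.4%). Of all tested regions 14.9% were so apart as higher and 21.0% as lower ex vivo, and 23.2% and 34.0% stimulated. Libraries that do not overlap are therefore common in these comparisons. The median log2 fold change of the 73 regions was 0.02 ex vivo and 0.07 stimulated, against -0.13 and -0.11 over all tested regions. Scaling by TMM, edgeR's trimmed mean, moves the ex vivo median of all regions to -0.02, so that an ex vivo value of -0.13 stands for no change relative to the average region.

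**Figure D1:**
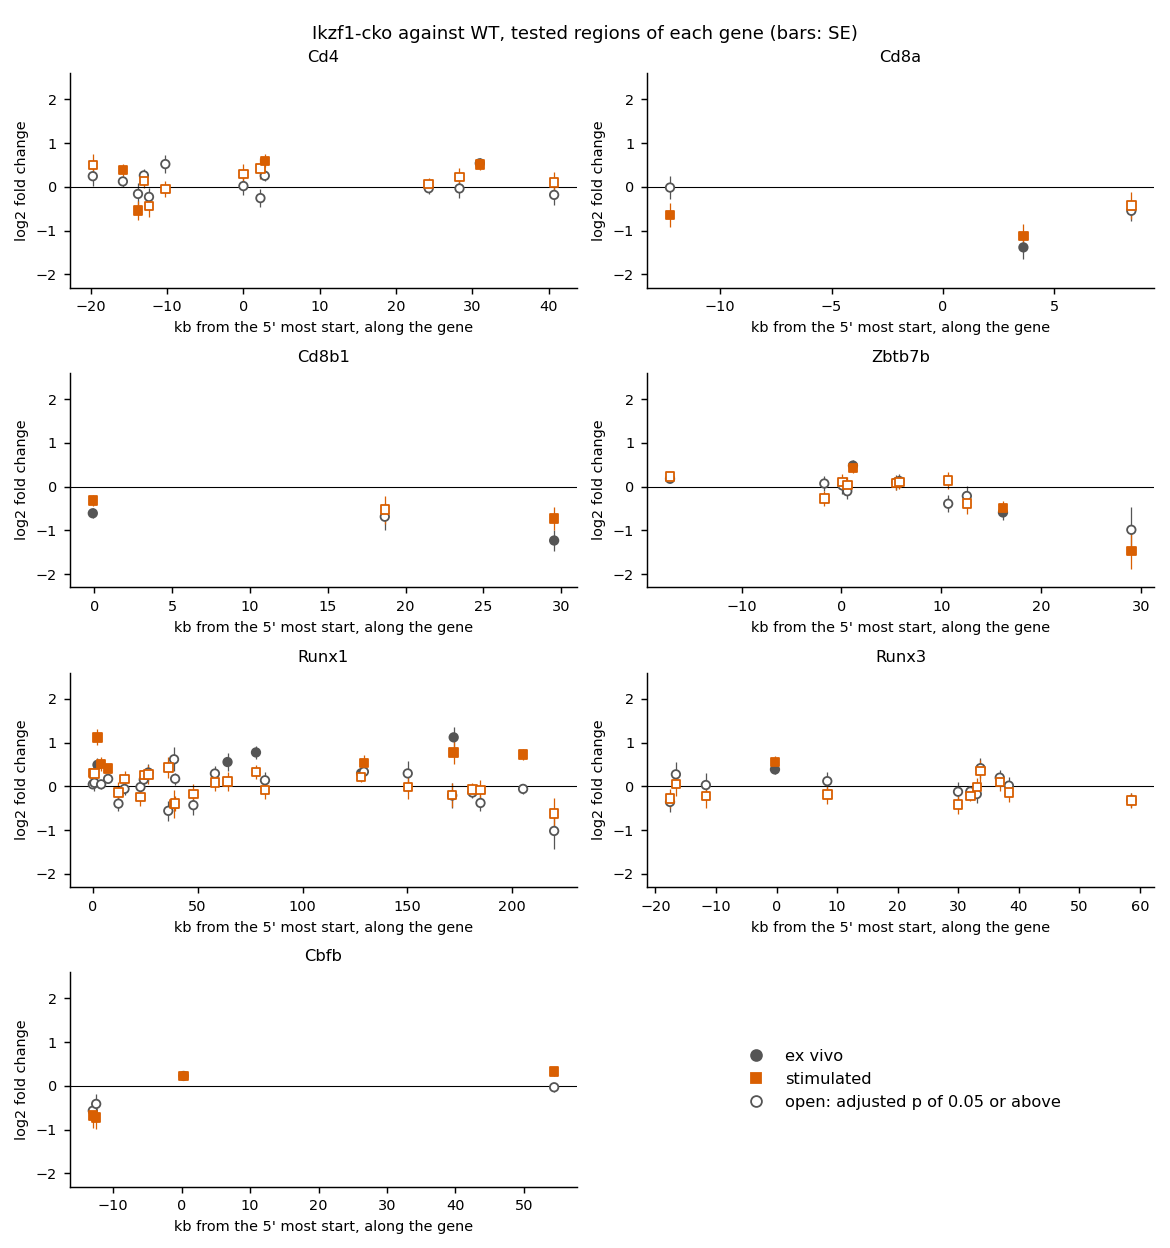
The log2 fold change of Ikzf1-cko against WT is plotted against distance in kb from the 5′ most annotated start for every tested region of the 7 genes, ex vivo (grey circles) and stimulated (orange squares), with bars for SE and filled symbols for an adjusted p under 0.05. All 6 tested regions of Cd8a and Cd8b1 lie below 0 in both states (by TMM, loess and DESeq2 1 of them lies above 0 ex vivo, and by loess 1 stimulated), whereas the filled symbols at Runx1 all lie above 0.

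Beginning with the coreceptors, Cd4 was accessible at its start in all groups. Its start (OCR_96701, chr6:124838133-124838358, first exon and 5′ UTR) held 20 ± 2.16 FPKM (SD, n = 3) in WT and 20.3 ± 1.91 in Ikzf1-cko ex vivo, and 18.1 ± 6.28 and 21.7 ± 1.72 stimulated. In none of the 4 comparisons did the start pass, and the adjusted p ranged from 0.298 to 0.951.

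The most accessible Cd4 region lay in the first intron, 2.79 kb from the start (OCR_96699, chr6:124835126-124835779). It held 29.1, 30.2 and 31.5 FPKM in WT ex vivo and 14.9, 24.6 and 15.9 in WT stimulated. In Ikzf1-cko it held 36.9, 39.3 and 32.3 ex vivo and 24.5, 29.1 and 29.9 stimulated. All stimulated libraries lay below all ex vivo libraries of the same genotype. It fell by 0.72 on the log2 scale in WT (SE 0.15, adjusted p = 0.00039) and by 0.38 in Ikzf1-cko (SE 0.12, adjusted p = 0.0176, and by DESeq2 0.41 with adjusted p = 0.0519), and stimulated Ikzf1-cko was higher than stimulated WT by 0.60 (SE 0.15, adjusted p = 0.0013) with overlapping libraries. The stimulation response itself did not pass as different between genotypes (0.34, adjusted p = 0.278). Leaving out Ikzf1-cko ex vivo replicate 1 or 2 or Ikzf1-cko stimulated replicate 1 ended the Ikzf1-cko call, with values of -0.36, -0.31 and -0.30 (adjusted p = 0.0537, 0.101 and 0.109).

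A neighbouring intronic region 2.22 kb from the start carries the 4 Runx cores printed above (OCR_96700). It lies in the first intron, in which the Cd4 silencer is known to reside. Its levels were 10.1, 19.4 and 18.6 FPKM in WT ex vivo, 14.1, 13.9 and 13.7 in Ikzf1-cko ex vivo, 10.4, 10.2 and 15.2 in WT stimulated and 16.2, 15.6 and 15.5 in Ikzf1-cko stimulated. It did not pass in any of the 4 comparisons (adjusted p from 0.113 to 0.544), and after loess the stimulated genotype difference was 0.68 (adjusted p = 0.0419) against 0.42. It is described for its sequence and falls outside the rule for naming regions.

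Upstream of Cd4, toward Lag3, stimulation opened 2 intergenic regions. At OCR_96705 (chr6:124851858-124852255, 13.8 kb upstream) the libraries held 10.6, 8.65 and 4.68 FPKM in WT ex vivo and 15.8, 20.2 and 16.2 in WT stimulated, and the rise of 1.18 (SE 0.25, adjusted p = 0.00041) was called. Ikzf1-cko went from 6.38, 7.67 and 6.44 FPKM to 13.1, 9.97 and 12.9, a rise of 0.81 (SE 0.22, adjusted p = 0.0078). It reached 3.6 CPM in all 6 stimulated libraries but in only 1 of the 6 ex vivo ones, and with no filter the rises were 1.18 and 0.81 (adjusted p = 0.00056 and 0.0111). Without WT ex vivo replicate 3 the WT value was 0.87, and it then passed without being called. OCR_96702, 10.2 kb upstream, rose by 0.99 in WT (adjusted p = 0.000704) and stood at 0.42 in Ikzf1-cko (adjusted p = 0.072). That region was named after its values were seen. The Cd4 region with the smallest p between genotypes ex vivo (OCR_96696, higher in Ikzf1-cko by 0.54, adjusted p = 0.00251) lay over an exon of Leprel2, a neighbour, and it was higher by 0.51 stimulated (adjusted p = 0.00192, and 0.29 with adjusted p = 0.0985 after loess).

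The Cd8 genes, which sit side by side on chromosome 6, had 11 regions, of which 5 were too weak to be tested and 1, over the Cd8b1 start, reached 3.6 CPM in all 12 libraries. OCR_93956 (chr6:71326691-71327387, last exon of Cd8a, coding end and 3′ UTR) held 4.69, 8.55 and 9.01 FPKM in WT ex vivo and 3.08, 2.40 and 3.31 in Ikzf1-cko. In stimulated Treg it held 7.12, 8.39 and 6.27 in WT and 3.73, 2.92 and 3.38 in Ikzf1-cko. No Ikzf1-cko library reached the lowest WT library in either state. The difference was -1.38 ex vivo (SE 0.26, adjusted p = 0.00023) and -1.12 stimulated (SE 0.28, adjusted p = 0.0012), both called. It reached 3.6 CPM in 5 of 6 WT libraries and in 0 of 6 Ikzf1-cko ones, so it was tested through WT alone, and with no filter the differences were -1.38 and -1.12 (adjusted p = 0.000297 and 0.00102). After loess it was -1.09 ex vivo (adjusted p = 0.00217) but -0.63 stimulated (adjusted p = 0.0845).

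Between the 2 genes, OCR_93953 (chr6:71302115-71302616, intergenic, 29.5 kb from the Cd8b1 start) held 10.7, 13.7 and 10.7 FPKM in WT ex vivo and 5.32, 4.05 and 5.62 in Ikzf1-cko. It held 7.91, 8.01 and 8.70 in WT and 5.83, 5.27 and 3.82 in Ikzf1-cko when stimulated. WT lay above Ikzf1-cko in every library of both states. The ex vivo difference was -1.23 (SE 0.23, adjusted p = 0.00023) and the stimulated one -0.73 (SE 0.27, adjusted p = 0.022), of which only the first was called. All 6 WT libraries and 0 of 6 Ikzf1-cko libraries reached 3.6 CPM, so this region too was tested through WT alone, and with no filter the values were -1.23 and -0.73 (adjusted p = 0.000336 and 0.0206). After loess these were -0.98 (adjusted p = 0.00147), just short of the fold threshold, and -0.34 (adjusted p = 0.343). By DESeq2 the stimulated difference was -0.63 (adjusted p = 0.107), and it was also lost without WT stimulated replicate 3 (-0.69, adjusted p = 0.0615) or Ikzf1-cko stimulated replicate 3 (-0.56, adjusted p = 0.111).

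The strongest region of the pair, over the Cd8b1 start (OCR_93950, chr6:71271983-71273473, also over the start of Smyd1 on the other strand), held 11.4, 14.7 and 14.3 FPKM in WT ex vivo and 8.78, 8.87 and 9.12 in Ikzf1-cko, a difference of -0.61 (SE 0.12, adjusted p = 0.000299). When stimulated it differed by -0.32 (SE 0.13, adjusted p = 0.0359), which was -0.25 by TMM (adjusted p = 0.133), -0.22 by DESeq2 (adjusted p = 0.28) and -0.53 after loess (adjusted p = 0.00169). Without WT stimulated replicate 1 or 3 or Ikzf1-cko stimulated replicate 1 or 3 it lay between -0.26 and -0.32, with adjusted p from 0.0719 to 0.152.

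The Cd8a start itself (OCR_93955, chr6:71323312-71323618) was too weak to be tested with the others. It held 9.4, 9.49 and 6.44 FPKM in WT ex vivo and 3.39, 5.68 and 1.67 in Ikzf1-cko, with 6 to 24 reads a library. WT stimulated libraries held 10.8, 9.52 and 8.13 and Ikzf1-cko stimulated libraries 6, 4.31 and 7.10, and the genotypes did not overlap in either state. Fitted with no filter it was lower in Ikzf1-cko ex vivo (-1.18, SE 0.37, adjusted p = 0.0284), and so was the equally untested OCR_93949 in a Smyd1 intron (-1.13, adjusted p = 0.0208), which was named after its values were seen.

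Fitted with no filter, 11 of the 11 Cd8 regions had negative differences ex vivo and 10 stimulated, 5 passed in each state and the medians were -0.76 and -0.66. Over all 118480 regions of that fit the medians were themselves negative, at -0.25 ex vivo and -0.37 stimulated. Of those regions 6670 and 32380 were called lower and 567 and 910 higher. Calls are stricter than passing, and the share of all regions that passed in that fit is not given, so the 5 have no background beside them. Of the 6 tested regions, chosen in part by their WT level, all had negative differences in both states, 3 passed ex vivo and 4 stimulated (12.7% and 30.7% of all tested regions passed as lower), and their median was -0.65 ex vivo and -0.58 stimulated. After loess 5 of 6 were negative in each state and the medians were -0.50 and -0.28, with 3 and 1 passing, while by TMM and by DESeq2 5 were negative ex vivo and 6 stimulated. The share of all tested regions passing after loess is not given. Of the CD8 and NK cell markers 4 of 6 had a region over a start site (Gzma, Gzmk, Klrb1c and Nkg7), and Ncr1 and Klrk1 had none. The markers' summed level was 27.2 to 33.1 FPKM in WT ex vivo and 25.6 to 29.3 in Ikzf1-cko ex vivo, and 25.7 to 30.3 and 23.1 to 27.7 stimulated. The part of such cells in the Cd8 difference was not tested. On stimulation 1 of the 6 tested Cd8 regions passed as lower in WT (OCR_93957, -0.69, adjusted p = 0.0404) and 0 in Ikzf1-cko by edgeR, where 1 had an unadjusted p under 0.05 and DESeq2 also passed 0. The WT value of OCR_93957 was lost by DESeq2 (-0.72, adjusted p = 0.0797). It was -0.75, -0.52 and -0.45 without WT ex vivo replicate 2, WT ex vivo replicate 3 and WT stimulated replicate 1 (adjusted p = 0.0549, 0.214 and 0.24).

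**Figure D2:**
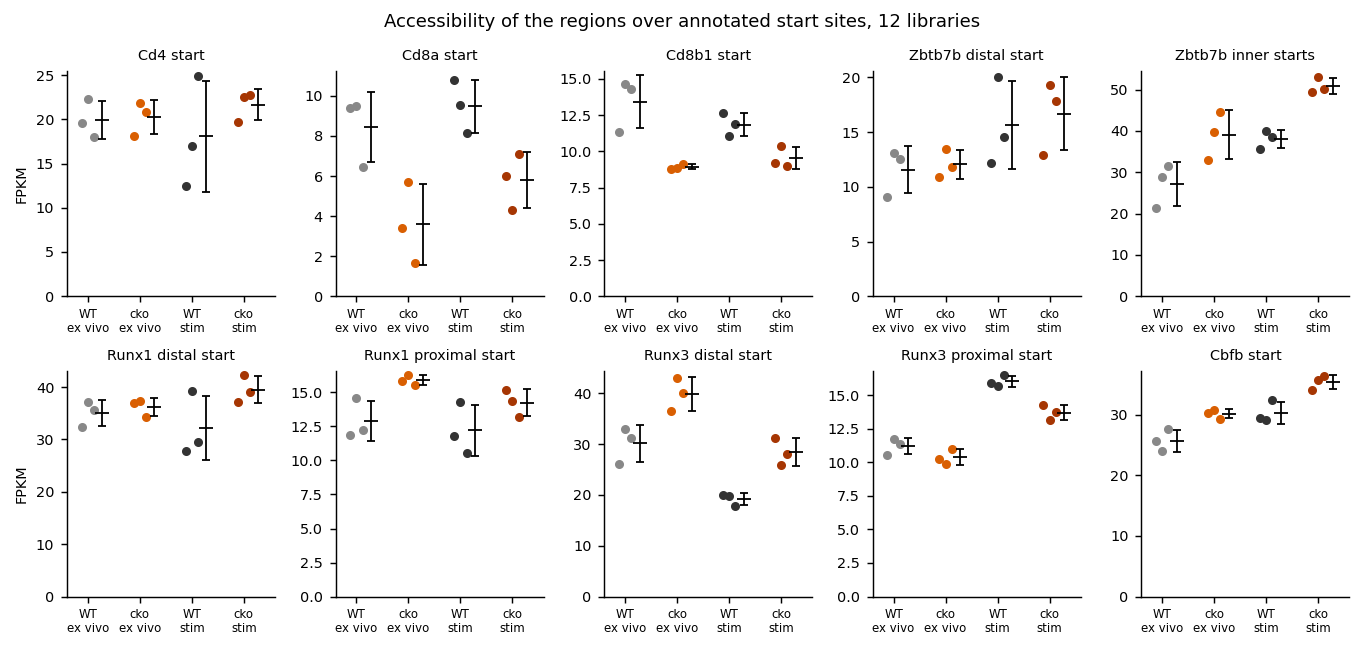
FPKM of the region over each named start site is shown for the 12 libraries as points (3 in each group) with the group mean and SD as a bar beside them, every axis starting at 0. The Cd8a and Cd8b1 starts are lower in Ikzf1-cko, the Runx3 distal start falls and the Runx3 proximal start rises on stimulation, and the region over the inner Zbtb7b starts is higher with stimulation and in Ikzf1-cko, whereas at the distal Zbtb7b start the genotypes overlap.

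Zbtb7b, the gene of the CD4-lineage factor ThPOK, opened on stimulation in both genotypes. In WT 5 of 11 tested regions passed as higher (26.9% of all tested regions did) and 0 as lower (20.7%), and in Ikzf1-cko 6 (12%) and 0 (11.5%), with medians of 0.40 and 0.39 against 0.04 and 0.06 over all tested regions. No Zbtb7b region was lower after stimulation at an unadjusted p under 0.05 in either genotype. By DESeq2 4 and 3 passed as higher and 0 as lower, and after loess 5 and 6 passed as higher. The shares of all tested regions passing by DESeq2 or loess are not given, so these counts have no background beside them.

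The region over the inner Zbtb7b starts was the most accessible of all 96 (OCR_72883, chr3:89197240-89197861, exon and 5′ UTR). It held 21.3, 28.8 and 31.6 FPKM in WT ex vivo and 35.6, 39.9 and 38.4 in WT stimulated. In Ikzf1-cko it held 32.9, 39.7 and 44.7 ex vivo and 49.3, 53.0 and 50.2 stimulated. Each stimulated library lay above the ex vivo libraries of its genotype, and each Ikzf1-cko library above the WT libraries of its state. The rise on stimulation was 0.45 in WT (SE 0.14, adjusted p = 0.0077) and 0.39 in Ikzf1-cko (SE 0.11, adjusted p = 0.0075). Ikzf1-cko was higher by 0.48 ex vivo (adjusted p = 0.00493) and by 0.42 stimulated (adjusted p = 0.00417), which after loess were 0.41 (adjusted p = 0.0117) and 0.14 (adjusted p = 0.376). WT ex vivo replicate 1 was the lowest of the 12, and without it the WT rise was 0.33 (adjusted p = 0.0519) and the ex vivo genotype difference 0.36 (adjusted p = 0.0515). Without Ikzf1-cko ex vivo replicate 1 the Ikzf1-cko rise was 0.27 (adjusted p = 0.0873), and by DESeq2 it was 0.36 (adjusted p = 0.0544).

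The region over the distal Zbtb7b start (OCR_72885, chr3:89198339-89198866) held 11.6 ± 2.15 FPKM in WT and 12.1 ± 1.33 in Ikzf1-cko ex vivo, and 15.6 ± 4.03 and 16.7 ± 3.32 stimulated. It did not pass between genotypes (0.03 and 0.11, adjusted p = 0.933 and 0.665) or on stimulation in WT (0.40, adjusted p = 0.123). It rose by 0.48 in Ikzf1-cko (adjusted p = 0.0376), which was 0.42 by TMM (adjusted p = 0.071), 0.45 by DESeq2 (adjusted p = 0.18) and 0.37 to 0.42 without Ikzf1-cko ex vivo replicate 1 or Ikzf1-cko stimulated replicate 2 or 3 (adjusted p from 0.13 to 0.181).

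Adjacent regions in an intron 5.79 and 5.49 kb from the distal start (OCR_72881 and OCR_72882) were also strong, and the first of them, at 31.9 ± 2.19 FPKM in WT ex vivo, did not pass in any comparison. OCR_72882 (chr3:89193076-89193333) went from 20.9, 19.0 and 26.2 FPKM to 34.6, 43.9 and 29.0 in WT and from 24.0, 23.9 and 23.5 to 39.5, 37.9 and 37.5 in Ikzf1-cko. It rose by 0.69 in WT (SE 0.19, adjusted p = 0.00299) and by 0.68 in Ikzf1-cko (SE 0.15, adjusted p = 0.00104), and the genotypes differed in this by -0.01 (SE 0.24, adjusted p = 0.984). This region was named after its values were seen.

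The 3′ end of Zbtb7b was instead less accessible in Ikzf1-cko. OCR_72878 (chr3:89182155-89182879, last exon, 3′ UTR) held 13.5, 11.7 and 9.95 FPKM in WT ex vivo, 8.44, 7.72 and 6.60 in Ikzf1-cko ex vivo, 16.9, 19.2 and 17.5 in WT stimulated and 14.2, 11.2 and 12.6 in Ikzf1-cko stimulated. The genotypes did not overlap in either state. The difference was -0.59 ex vivo (adjusted p = 0.0100) and -0.49 stimulated (adjusted p = 0.00816), and both genotypes rose on stimulation, by 0.63 in WT (adjusted p = 0.0024) and 0.73 in Ikzf1-cko (adjusted p = 0.00064). By DESeq2 the genotype differences were -0.51 (adjusted p = 0.0811) and -0.39 (adjusted p = 0.0997), and without WT ex vivo replicate 1 the ex vivo one was -0.50 (adjusted p = 0.0655).

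A weak intergenic region 29 kb downstream of the Zbtb7b distal start (OCR_72877, chr3:89169449-89169876) was called in 3 comparisons and in none of them after loess. Only the 3 WT stimulated libraries reached 3.6 CPM, so it was tested through the group in which it was high, which enters 2 of the 3 calls. It held 3.15, 3.40 and 2.17 FPKM in WT ex vivo, 1.37, 1.53 and 1.40 in Ikzf1-cko ex vivo, 12.4, 11.1 and 10.2 in WT stimulated and 7.35, 1.66 and 3.26 in Ikzf1-cko stimulated. Its values were 1.96 for stimulation in WT, 1.48 in Ikzf1-cko and -1.47 for genotype in stimulated Treg, with no filter 1.96, 1.47 and -1.48 (adjusted p = 0.000399, 0.0163 and 0.00142), and after loess 0.14, 0.75 and 0.42 (adjusted p = 0.814, 0.154 and 0.322). Without Ikzf1-cko stimulated replicate 1, the highest of its group, the Ikzf1-cko value was 0.79 (adjusted p = 0.315), and without Ikzf1-cko ex vivo replicate 1 or 2 it was 1.44 and 1.52 (adjusted p = 0.0628 and 0.0543). With the compared libraries only it was 1.49 (adjusted p = 0.0651), and with the replicate block within genotype 1.35 (adjusted p = 0.085).

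Turning to the Runx genes, stimulation closed a stretch of Runx1 downstream of its distal promoter in both genotypes. Runx1 had 27 tested regions, of which 8 passed as lower (29.6%, against 20.7% of all tested regions) and 2 as higher (against 26.9%) in WT, and 10 as lower (37.0% against 11.5%) and 3 as higher (against 12%) in Ikzf1-cko, and the medians were -0.12 and -0.29. After loess 6 passed as lower and 0 as higher in WT and 11 and 3 in Ikzf1-cko, and by DESeq2 6 and 1 in WT and 8 and 2 in Ikzf1-cko. For these settings no share of all tested regions is given, so the counts cannot be set against a background.

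The region 4.04 kb into the gene (OCR_47851, chr16:92822005-92822545, intron) fell most. It held 35.2, 36.0 and 38.5 FPKM in WT ex vivo and 11.6, 16.5 and 15 in WT stimulated. Ikzf1-cko went from 39.7, 36.1 and 37.6 to 21.2, 20.5 and 19.3. In both genotypes all stimulated libraries lay below all ex vivo libraries. On the log2 scale it fell by 1.36 in WT (SE 0.15, adjusted p = 1.69e-08, called) and by 0.90 in Ikzf1-cko (SE 0.11, adjusted p = 6.29e-07). Stimulated Ikzf1-cko libraries all lay above stimulated WT libraries (0.51, adjusted p = 0.00649), a difference of 0.33 after loess (adjusted p = 0.0927) and of 0.36 without WT stimulated replicate 1 (adjusted p = 0.0876). The difference between the falls did not pass (0.46, adjusted p = 0.125).

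Further in, OCR_47848 (chr16:92810749-92811518, 15.2 kb) went from 16.7, 17.0 and 17.5 FPKM to 9.45, 7.59 and 7.29 in WT and from 16.0, 18.0 and 15.2 to 8.87, 8.46 and 10.1 in Ikzf1-cko. It fell by 1.07 in WT (SE 0.17, adjusted p = 8.55e-06, called) and by 0.84 in Ikzf1-cko (SE 0.13, adjusted p = 2.44e-05), and after loess the WT value of -0.90 (adjusted p = 0.000106) passed without being called. OCR_47850, 7.36 kb in and the strongest Runx1 region at 40.9 ± 2.75 FPKM in WT ex vivo, fell by 0.63 in WT (adjusted p = 4.25e-05) and by 0.39 in Ikzf1-cko (adjusted p = 0.00182). OCR_47849, 12.3 kb in and named after its values were seen, fell by 0.99 (adjusted p = 0.000332) and by 0.73 (adjusted p = 0.00312).

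At the promoters of Runx1 fewer comparisons passed. Over the distal start (OCR_47854, chr16:92825683-92826806, 5′ UTR and first coding exon) the group means were 35.0 ± 2.44, 36.3 ± 1.71, 32.2 ± 6.11 and 39.5 ± 2.55 FPKM in WT ex vivo, Ikzf1-cko ex vivo, WT stimulated and Ikzf1-cko stimulated. Only the stimulated genotype difference passed, at 0.30 (adjusted p = 0.0145), and it was -0.04 after loess (adjusted p = 0.772). It was 0.19 without WT stimulated replicate 1 (adjusted p = 0.155), and 0.25 without WT stimulated replicate 3 or Ikzf1-cko stimulated replicate 2 (adjusted p = 0.0776 and 0.0751). The proximal start (OCR_47829, chr16:92697427-92699372) was higher in Ikzf1-cko ex vivo by 0.30 (adjusted p = 0.0356), and by 0.21 after loess (adjusted p = 0.136), and without WT ex vivo replicate 1 or 3 or Ikzf1-cko ex vivo replicate 1 or 2 it lay between 0.25 and 0.30 (adjusted p from 0.074 to 0.141). Beside it, OCR_47828, 0.271 kb from a proximal start, fell on stimulation from 25.2 ± 4.5 to 15 ± 4.01 FPKM in WT (-0.79, adjusted p = 0.00074) and from 32.1 ± 2.34 to 21.2 ± 1.57 in Ikzf1-cko (-0.60, adjusted p = 0.00141).

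Against that, the Runx1 regions that differed with genotype were higher without Ikaros, 5 of 27 passing as higher (18.5%, against 8.78% of all tested regions) and 0 as lower (12.7%) ex vivo, and 7 (25.9%, near the 20.4% of all tested regions) and 0 (30.7%) stimulated. By DESeq2, for which no share of all tested regions is given, these were 4 and 0, and 9 and 0. At an unadjusted p under 0.05, 7 were higher and 4 lower ex vivo, and 8 and 1 stimulated.

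OCR_47852 (chr16:92823894-92824151, intron, 2.29 kb from the distal start), with its pair of AP-1 motifs, held 24.6, 22.6 and 27.1 FPKM in WT ex vivo and 35.6, 35.2 and 33.8 in Ikzf1-cko ex vivo. In stimulated Treg it held 19.2, 14.2 and 19.3 in WT and 39.5, 35.9 and 39.2 in Ikzf1-cko. The genotypes were fully apart in both states. The difference was 0.49 ex vivo (SE 0.15, adjusted p = 0.0214) and 1.12 stimulated (SE 0.18, adjusted p = 1.01e-05, called, and 1.15 after loess). Without WT stimulated replicate 2 the latter was 0.99 and passed without being called, and without replicate 1 or 2 of either ex vivo group the former lay between 0.42 and 0.49 (adjusted p from 0.0584 to 0.114). Whereas its neighbour OCR_47851 fell on stimulation in both genotypes, OCR_47852 stood at 0.13 in Ikzf1-cko (adjusted p = 0.502) and at -0.50 in WT (adjusted p = 0.0398), the response not passing as different (0.63, adjusted p = 0.100). The WT value was lost after loess (-0.40, adjusted p = 0.149), by DESeq2 (-0.54, adjusted p = 0.0866), with the compared libraries only (adjusted p = 0.076), with the block within genotype (adjusted p = 0.0548) and without WT ex vivo replicate 1 or 3 or WT stimulated replicate 1 or 2 (-0.36 to -0.58, adjusted p from 0.0521 to 0.18).

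Deep in the gene, OCR_47823 (chr16:92654080-92654472, intron, 172 kb from the distal start) held 10.8, 6.07 and 5.62 FPKM in WT ex vivo and 15.9, 16.1 and 14.4 in Ikzf1-cko. It held 8.42, 4.18 and 6.88 in WT and 13.2, 9.84 and 10.7 in Ikzf1-cko stimulated. Again the genotypes did not overlap. It was higher in Ikzf1-cko by 1.12 ex vivo (SE 0.23, adjusted p = 0.000827, called) and by 0.77 stimulated (SE 0.27, adjusted p = 0.0177), and after loess by 1.34 and 1.10. All 6 Ikzf1-cko libraries but only 1 of 6 WT libraries reached 3.6 CPM, so it was tested through Ikzf1-cko, and with no filter the values were 1.12 and 0.77 (adjusted p = 0.00165 and 0.02). Without WT ex vivo replicate 3 the ex vivo value was 0.94 (adjusted p = 0.0136), and without WT stimulated replicate 2 or Ikzf1-cko stimulated replicate 1 the stimulated value was 0.53 and 0.65 (adjusted p = 0.129 and 0.0674). OCR_47834, 77.8 kb in, held 7.30 ± 0.793 FPKM in WT and 12.6 ± 0.482 in Ikzf1-cko ex vivo, a difference of 0.77 (adjusted p = 0.000266), and 0.33 stimulated (adjusted p = 0.0993).

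A region 205 kb from the distal start was the only one of the 73 whose stimulation response passed as different between genotypes, as 5.66% of all tested regions did with a higher value in Ikzf1-cko and 1.82% with a lower one. OCR_47819 (chr16:92620764-92621645, Runx1 intron) held 15.7, 18.0 and 17.9 FPKM in WT ex vivo, 17.3, 17.1 and 15.5 in Ikzf1-cko ex vivo, 18.2, 16.4 and 17.9 in WT stimulated and 33.2, 27.3 and 26.5 in Ikzf1-cko stimulated. It was level in 3 groups and higher in the fourth, and it was named after its values were seen. It rose by 0.80 in Ikzf1-cko (SE 0.11, adjusted p = 1.55e-06) against 0.01 in WT (SE 0.14, adjusted p = 0.956), an interaction of 0.78 (SE 0.17, adjusted p = 0.00465). None of the 73 had an interaction that was called by edgeR or by DESeq2, and 8 had an unadjusted p under 0.05, 6 of them positive. Without WT ex vivo replicate 1, or without Ikzf1-cko stimulated replicate 1, 1 region was called.

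A weak region in the last Runx1 exon (OCR_47818, chr16:92606107-92606689) was called as opened by stimulation in both genotypes. It reached 3.6 CPM in 3 libraries, all of them stimulated (2 WT and 1 Ikzf1-cko), so it was tested through the state in which it was high, and with no filter the values were 1.12 and 1.51 (adjusted p = 0.00725 and 0.00167). It held 2.64, 5.45 and 2.99 FPKM in WT ex vivo and 9.64, 5.64 and 9.27 stimulated, and 2.01, 2.12 and 1.32 in Ikzf1-cko ex vivo and 6.88, 3.67 and 5.39 stimulated. The values of 1.12 (adjusted p = 0.0141) in WT and 1.52 (adjusted p = 0.00301) in Ikzf1-cko became -0.02 (adjusted p = 0.98) and 1.00 (adjusted p = 0.0197) after loess, so that the WT call was lost. Without WT ex vivo replicate 1 or 3 or WT stimulated replicate 1 or 3 the WT value lay between 0.96 and 1.03 (adjusted p from 0.0493 to 0.0757).

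**Figure D3:**
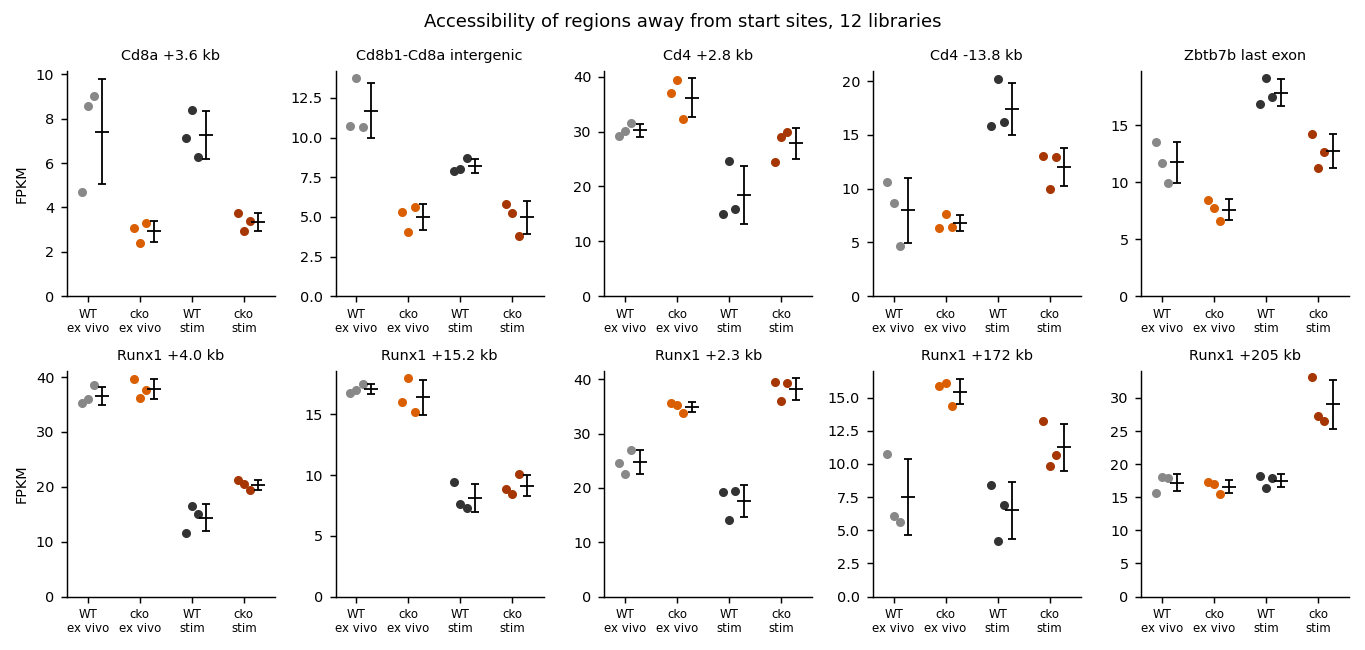
FPKM of 10 regions away from start sites is shown for the 12 libraries as points with group mean and SD, every axis starting at 0. The 2 Cd8 regions are lower in Ikzf1-cko, the Runx1 regions 4.0 and 15 kb in fall with stimulation in both genotypes, those 2.3 and 172 kb in are higher in Ikzf1-cko in both states, and the one 205 kb in is higher in stimulated Ikzf1-cko than in the other 3 groups.

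At Runx3, the gene of the Runx protein of CD8 T cells, the distal and proximal promoters moved in opposite directions on stimulation. The distal start (OCR_82532, chr4:134675943-134676663, 5′ UTR, also over the antisense gene Gm16225) held 26.2, 33.1 and 31.3 FPKM in WT ex vivo and 20, 19.8 and 17.9 in WT stimulated. It held 36.5, 43.0 and 40.1 in Ikzf1-cko ex vivo and 31.3, 26.0 and 28.1 stimulated. Every stimulated library lay below the ex vivo libraries of its genotype. It fell by 0.66 in WT (SE 0.13, adjusted p = 0.00019) and by 0.49 in Ikzf1-cko (SE 0.10, adjusted p = 0.00061).

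The proximal start (OCR_82539, chr4:134707973-134709159, 5′ UTR and coding exon) instead rose, from 10.5, 11.7 and 11.4 FPKM to 15.9, 15.7 and 16.5 in WT and from 10.3, 9.86 and 11 to 14.3, 13.1 and 13.7 in Ikzf1-cko. The rise was 0.51 in WT (SE 0.13, adjusted p = 0.0016) and 0.40 in Ikzf1-cko (SE 0.11, adjusted p = 0.00672, and 0.37 with adjusted p = 0.0617 by DESeq2). After loess the distal values were -0.42 and -0.45 and the proximal ones 0.74 and 0.46, each with an adjusted p under 0.05. The regions over 2 further inner starts (OCR_82540 and OCR_82541) did not pass in any of the 4 comparisons.

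The Runx3 distal start was also more accessible without Ikaros, by 0.38 ex vivo (SE 0.11, adjusted p = 0.00916) and 0.56 stimulated (SE 0.13, adjusted p = 0.000596), with no overlap of libraries, and after loess by 0.33 (adjusted p = 0.0225) and 0.30 (adjusted p = 0.0713). Without WT ex vivo replicate 1 or Ikzf1-cko ex vivo replicate 2 the ex vivo value was 0.31 and 0.33 (adjusted p = 0.0694 and 0.0674). The proximal start stood at -0.12 and -0.22, neither of which passed, and after loess the latter was -0.42 (adjusted p = 0.00684). No Runx3 region was called in any comparison by edgeR, although 1 of 12 had an unadjusted p under 0.05 for genotype in each state and 5 and 3 for stimulation in WT and Ikzf1-cko. Of the 19 Runx3 regions 7 were too weak to test, and with no filter 2 of these, OCR_82529 and OCR_82533, were called lower in stimulated Ikzf1-cko than in stimulated WT (-1.03 and -1.59). In that fit 32380 of all 118480 regions were called lower and 910 higher. OCR_82529 reached 3.6 CPM in 1 library and OCR_82533 in 2, all of them WT stimulated. Both were named after their values were seen.

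Cbfb, whose product stabilises Runx proteins on DNA, had its strongest region over the start (OCR_109595, chr8:107693959-107695764). It held 25.6, 23.9 and 27.6 FPKM in WT ex vivo, 30.3, 30.8 and 29.3 in Ikzf1-cko ex vivo, 29.4, 29.1 and 32.4 in WT stimulated and 34.0, 35.7 and 36.3 in Ikzf1-cko stimulated. All 4 differences were 0.23, with adjusted p from 0.0161 to 0.0319, and the libraries compared did not overlap. Each of the 4 was lost without one of the libraries compared (0.17 to 0.22), namely WT ex vivo replicates 1 and 2, Ikzf1-cko ex vivo replicates 1 and 2, any WT stimulated replicate and Ikzf1-cko stimulated replicates 2 and 3. After loess the genotype differences were 0.09 (adjusted p = 0.387) and -0.14 (adjusted p = 0.124) and the stimulation ones 0.49 and 0.26, and by DESeq2 the stimulation ones were 0.19 and 0.20 (adjusted p = 0.131 and 0.128). By TMM the stimulation ones were 0.22 in WT and 0.17 in Ikzf1-cko (adjusted p = 0.0841 and 0.191). OCR_109597, in an exon of the neighbouring gene D230025D16Rik, was higher in stimulated Ikzf1-cko by 0.33 (adjusted p = 0.0126), which was 0.04 after loess (adjusted p = 0.81), 0.22 without WT stimulated replicate 3 (adjusted p = 0.12) and 0.25 without Ikzf1-cko stimulated replicate 3 (adjusted p = 0.0959). The other 2 of the 4 tested regions, OCR_109593 and OCR_109594, both intergenic and named after their values were seen, passed as lower in stimulated Ikzf1-cko (-0.68 and -0.72, adjusted p = 0.0396 and 0.0258), and after loess stood at -0.11 and -0.30 (adjusted p = 0.795 and 0.41) and by DESeq2 at -0.58 and -0.62 (adjusted p = 0.152 and 0.121), and the first by TMM at -0.60 (adjusted p = 0.0654). Both were also lost without WT stimulated replicate 1 or 3 or Ikzf1-cko stimulated replicate 3, and OCR_109593 without replicate 2 of either stimulated group (-0.55 to -0.73, adjusted p from 0.0543 to 0.135). OCR_109593 reached 3.6 CPM in 2 WT ex vivo, 3 WT stimulated and 0 Ikzf1-cko libraries. OCR_109594 reached it in 3 WT ex vivo, 3 WT stimulated, 1 Ikzf1-cko ex vivo and 0 Ikzf1-cko stimulated libraries. These regions were thus tested mainly through WT, where they were high, and their differences are not independent of the filter.

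Set against the comparison as a whole, stimulation called 3 of the 73 regions higher in WT (17.7% of all tested regions were) and 2 lower (2.32%), and 2 higher in Ikzf1-cko (3.02%) and 0 lower (0.632%) by edgeR, with DESeq2 also at 0 and 14 lower at an unadjusted p under 0.05. Passing were 11 as higher (26.9%) and 11 as lower (20.7%) in WT and 13 (12%) and 12 (11.5%) in Ikzf1-cko. The FPKM of the 2 states did not overlap at 12 regions as higher and 11 as lower in WT. These were 16.4% and 15.1% of the 73, against 29.8% and 24.3% of all tested regions. In Ikzf1-cko they were 19 and 20 (26.0% and 27.4%, against 20.4% and 17.3%). The WT count of 5 called regions was 8 without WT ex vivo replicate 2, and the Ikzf1-cko count of 2 was 1 without Ikzf1-cko ex vivo replicate 1 or 2 or Ikzf1-cko stimulated replicate 1. The 2 stimulation comparisons share no library. Over the 73 regions their log2 fold changes had a Pearson r of 0.774 and a Spearman rho of 0.724, and 57 had the same sign (78.1%, against 74.0% of all tested regions). Points from 1 gene and regions of like strength are not independent, and after loess the Pearson r was 0.697. The genotype comparisons each share a group with the stimulation comparisons, so they are given above side by side and were not correlated with them.

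**Figure D4:**
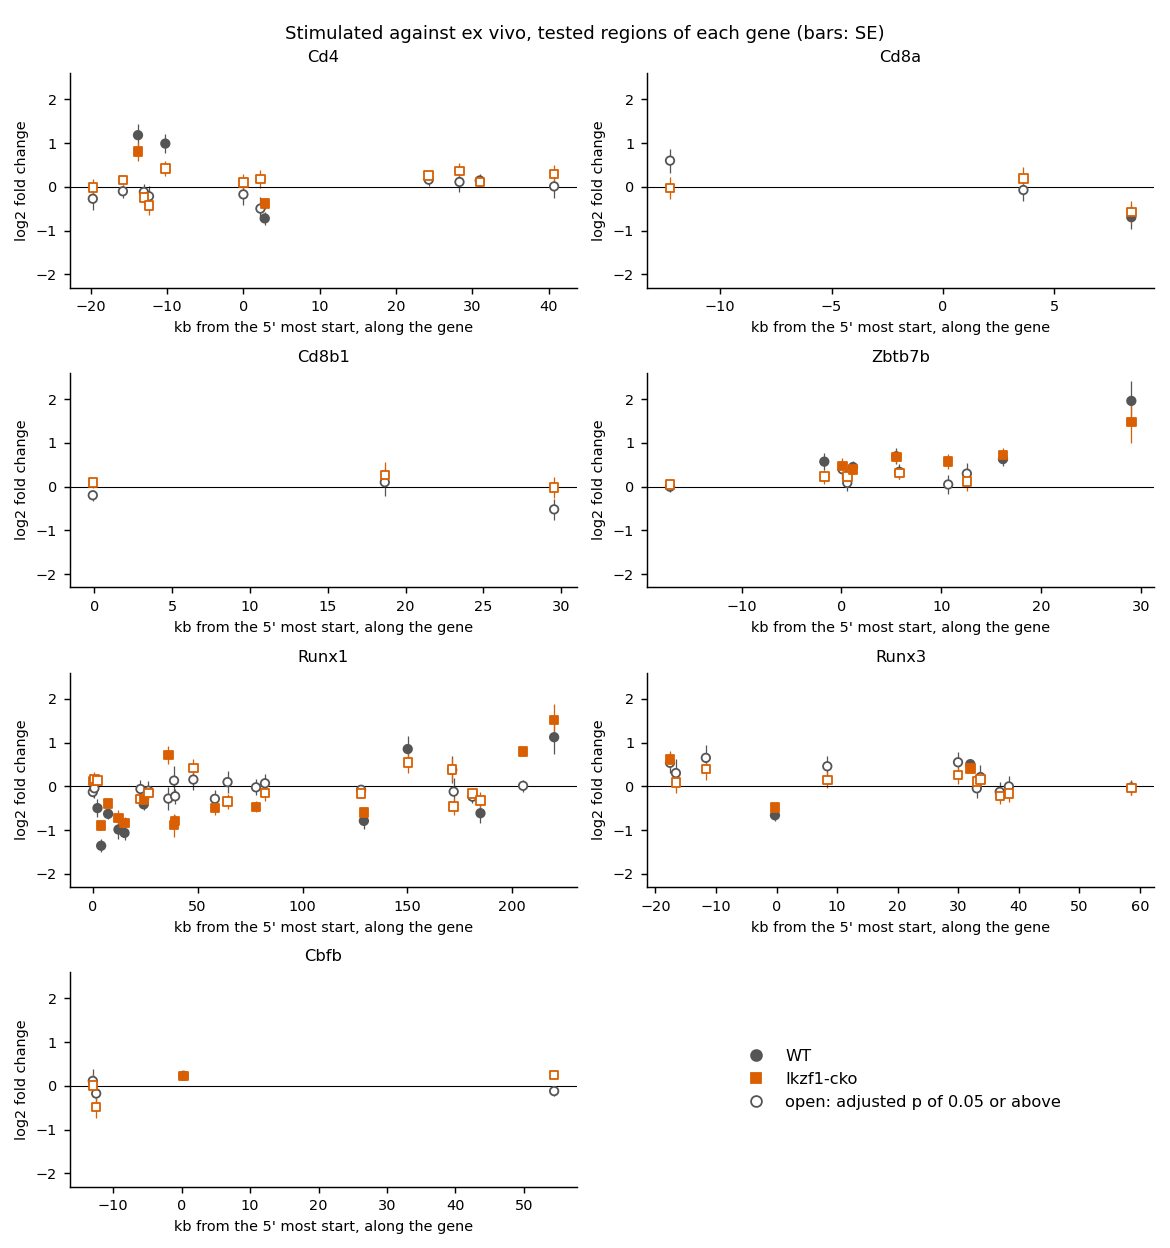
The log2 fold change of stimulated against ex vivo Treg is plotted against distance in kb from the 5′ most start for every tested region, in WT (grey circles) and Ikzf1-cko (orange squares), with bars for SE and filled symbols for an adjusted p under 0.05. At Zbtb7b the filled symbols all lie above 0, at Runx1 those within 25 kb of the distal start all lie below 0, and at Runx3 the distal start lies below and the proximal start above 0.

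Accessibility was also summed over the tested regions of each gene, which for the Cd8 genes are in part those high in WT. Cd8b1 held 29.6 ± 3.25 CPM in WT ex vivo, 18.0 ± 1.01 in Ikzf1-cko ex vivo, 25.6 ± 0.899 in WT stimulated and 19.4 ± 1.33 in Ikzf1-cko stimulated, and Cd8a 14.6 ± 2.17, 9.49 ± 0.599, 13.8 ± 1.67 and 8.25 ± 1.09. Zbtb7b held 95.5 ± 6.42, 102 ± 5.91, 122 ± 13.9 and 128 ± 1.83, and Runx1 294 ± 18.2, 322 ± 11.6, 239 ± 17.9 and 285 ± 6.33. Runx3 held 85.1 ± 5.92, 89.3 ± 0.365, 89.9 ± 1.89 and 88.8 ± 4.37, and its groups overlapped. Cd4 held 104 ± 3.69, 116 ± 2.51, 102 ± 8.75 and 121 ± 7.12, and Cbfb 79.6 ± 4.32, 84.7 ± 0.822, 85.6 ± 1.65 and 97.7 ± 3.66. These sums are descriptions and were not tested.

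Over the 12 libraries, the summed levels most like each gene's, on the log2 scale and among 25062 annotated genes on other chromosomes, were those of Lamtor3 (Pearson r = 0.971) and Tmem201 (0.969) for Cd4, Car8 (0.938) and AL772336.1 (0.930) for Cd8a, and Slc7a13 (0.969) and D830013O20Rik (0.965) for Cd8b1. For Zbtb7b they were Dhx16 and Mdc1 (0.984 each, both on chromosome 17), for Runx1 4833407H14Rik (0.983) and 2900073G15Rik (0.979), for Runx3 Gm13828 (0.841) and Cyp4f39 (0.830), and for Cbfb Clcn5 (0.971) and 4930412F09Rik (0.966). These are descriptions of 12 libraries in 4 groups.

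Among 18 other genes of T cell lineage choice, Runx partners among them, 287 regions were tested in the same windows. On stimulation in WT 89 passed as lower (31.0%, against 20.7% of all tested regions) and 20 as higher (6.97% against 26.9%), and in Ikzf1-cko 65 (22.6% against 11.5%) and 25 (8.71% against 12%), with medians of -0.23 and -0.06. Ets1 had 20 of 42 tested regions lower in WT and 27 in Ikzf1-cko, and Tox, needed for CD4 T cell development, had 22 of 44 lower in WT and 10 in Ikzf1-cko. Tcf3 (E2A) went the other way with 4 and 5 of 5 higher. Between genotypes 31 passed as higher (10.8%) and 35 as lower (12.2%) ex vivo, near the 8.78% and 12.7% of all tested regions, and 68 (23.7% against 20.4%) and 23 (8.01% against 30.7%) stimulated. Runx2, the third Runx gene, had 7 of 24 higher and 1 lower in Ikzf1-cko ex vivo and 11 and 1 stimulated, and Satb1, a chromatin organiser that acts on Cd4, Cd8 and Runx3 in thymocytes, had 9 of 17 lower ex vivo and 5 stimulated.

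Scaling moved the values of the 7 genes' regions by their strength. For stimulated Ikzf1-cko against stimulated WT, scaling to library totals gave lower values than loess for the weakest regions and higher ones for the strongest, and for stimulation in WT the reverse. Of the 13 calls made in the 4 comparisons, loess ended 7, namely the 3 of OCR_72877 at Zbtb7b and those of OCR_47818 at Runx1 in WT and OCR_93956 at Cd8a stimulated, beside OCR_93953 ex vivo and OCR_47848 in WT, which fell just under the fold threshold. Loess kept the calls of OCR_47851, OCR_47852, OCR_47823, OCR_96705, OCR_47818 in Ikzf1-cko and, ex vivo, OCR_93956, and it added 4, namely OCR_47823 stimulated (1.10), OCR_96702 in WT (1.00) and OCR_47841 at Runx1 ex vivo (1.07) and in Ikzf1-cko (-1.18), the last region being named after its values were seen. OCR_47841 reached 3.6 CPM in 3 Ikzf1-cko ex vivo libraries, 1 WT stimulated library and 0 of the other groups. It was tested mainly through Ikzf1-cko ex vivo, the group in which it was high, so its calls are not independent of the filter.

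**Figure D5:**
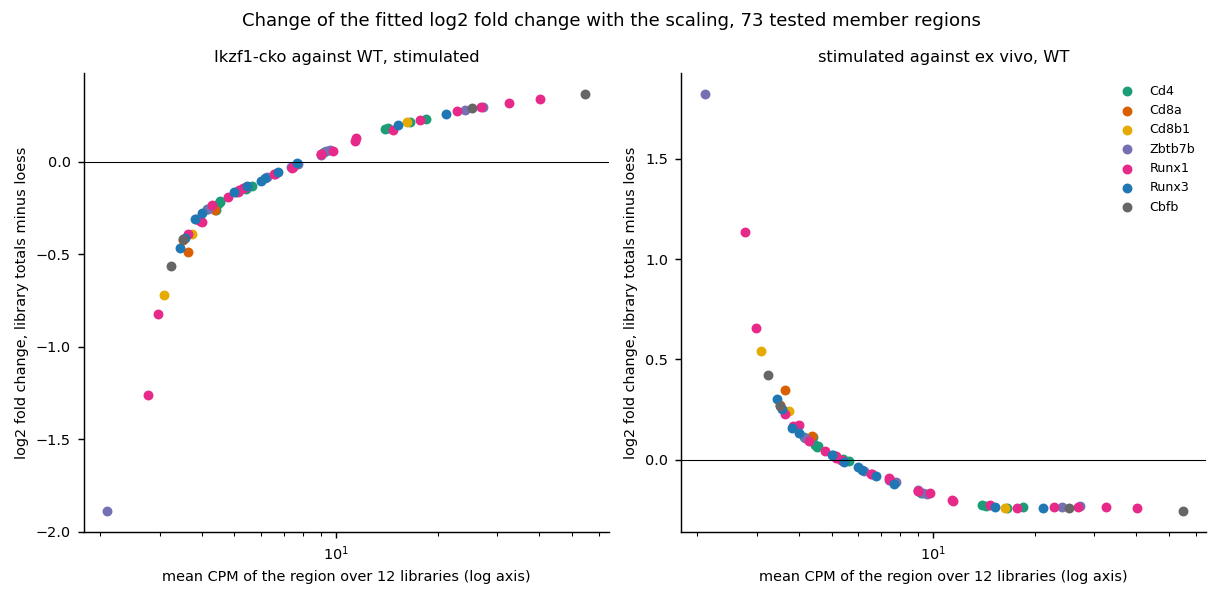
The log2 fold change scaled to library totals minus that after loess is plotted for the 73 tested regions against their mean CPM over 12 libraries (log axis), for Ikzf1-cko against WT stimulated (left) and stimulated against ex vivo WT (right), coloured by gene. Regions under about 5 CPM lie on the side that raises WT stimulated, and the weakest, at Zbtb7b, moved most.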

How the data were processed

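ATAC-seq was carried out on 12 libraries of sorted Treg in 4 groups of 3, 2 genotypes in 2 states. The submitters' processing notes name bcl2fastq, Bowtie2, MACS2 and build mm9, without versions, whereas the methods print a human build for the alignment; the coordinates here fit mm9. Peaks were called by the authors in each library, those found in fewer than 2 replicates were removed, and the rest were merged into 1 reference set of 118680 open chromatin regions. The authors deposited de-duplicated read counts per region and library, with FPKM values made from them and log2 values of these made by the authors, the latter not used here. Their own fold changes and test results for called regions were deposited too and were not used. Counts went into the tests, and the deposited FPKM values are the levels given. The study scaled libraries by genomic background bins, which are not part of these tables, so library totals over regions were used instead. The methods call the libraries biological replicates and say that the sorted Treg were divided, with one part stimulated. Whether libraries came from separate mice, and which are parts of the same sort, is not stated, so p-values measure only the spread between these libraries.

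The test took the 69957 regions that reached 3.6 CPM in 3 or more libraries and used glmQLFit and glmQLFTest of edgeR 4.0.16 in R 4.3.3, in 1 model of group means. Called regions had an adjusted p (Benjamini-Hochberg) under 0.05 together with a log2 fold change above 1 or below -1. The interaction is the stimulation response in Ikzf1-cko minus that in WT. The ex vivo genotype test was run on simulated data for the 69957 regions. Of 200 given a log2 fold change of 2 it found 200, and it made 2 false calls. That change is above the fold threshold, and smaller changes were not covered. The changed regions were drawn from the stronger ones, so changes in weak regions were not covered either. All simulated regions had the same dispersion, and the simulated libraries held no shift with region abundance. These counts give no rate of false calls for the real libraries. There, loess moved the ex vivo higher and lower calls from 411 and 2827 to 907 and 658. TMM, loess on abundance (limma 3.58.1, span 0.3), DESeq2 1.42.0, no filter, a filter in all 12 libraries, fits of the compared libraries only, a replicate block and leaving out each library were the alternatives.

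Genes, starts, exons and UTRs were taken from the GENCODE annotation of mm9, and sequences from the mm9 genome. Regions on scaffolds outside the reference chromosomes (200) matched no gene. Named regions were, for each gene, those over a start site, the strongest, the one with the smallest p in each of the 4 pairwise comparisons, and every called one; others are said to be named after their values were seen or for their sequence. The genes, lists and tests were chosen with earlier results of these data known. No deposited column was left unmapped.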

Additional observations from a re-analysis of the deposited data

Results flagged for a closer look

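The stimulation response of OCR_47819, in a Runx1 intron 205 kb from the distal start, differed between genotypes by a test of the difference itself, and the region was named after its values were seen. The interaction was 0.78 on the log2 scale (SE 0.17, edgeR's quasi-likelihood test, adjusted p = 0.00465). Its levels were 15.7, 18.0 and 17.9 FPKM in WT ex vivo, 17.3, 17.1 and 15.5 in Ikzf1-cko ex vivo, 18.2, 16.4 and 17.9 in WT stimulated and 33.2, 27.3 and 26.5 in Ikzf1-cko stimulated, so that all 3 stimulated Ikzf1-cko libraries lay above the other 9. After loess the interaction was 0.59 (adjusted p = 0.0422), by TMM 0.74 (adjusted p = 0.0199) and by DESeq2 0.79 (adjusted p = 0.0163). Depth and genotype cannot be told apart in these libraries, and their part in the difference was not tested.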

How the results depend on the processing

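Called regions of the 7 genes numbered 3 and 3 for genotype ex vivo and stimulated, 5 and 2 for stimulation in WT and Ikzf1-cko, and 0 for the interaction. With no filter these were 7, 6, 8 and 5, with 3.6 CPM required in all 12 libraries 0, 1, 2 and 0 (fewer regions are then tested), and with no threshold on the fold change 13, 23, 22, 25 and, for the interaction, 1. Over all 118480 regions with no filter, higher and lower calls were 567 and 6670, 910 and 32380, 30247 and 1837, and 7267 and 603. With the filter in all 12 libraries they were 163 and 176, 500 and 358, 150 and 1089, and 83 and 193 of 34257 regions. After loess the WT stimulation count was 3, and with the compared libraries only the Ikzf1-cko one was 1. Leaving out each library in turn gave 2 to 3, 2 to 4, 4 to 8, 1 to 3 and 0 to 1. With the replicate number as a block the counts were 3, 3, 6, 2 and 0, and with the block within genotype 5 and 1 for stimulation and 0 for the interaction; the numbers did not pair the libraries (18 same-number pairs, r from -0.36 to 0.28, 6 over 0.1, 3 of 12 libraries closest to their own number). The cause of these shifts was not tested.

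Reversed after loess were the stimulated genotype differences of OCR_72877 (0.42), OCR_47854 (-0.041) and OCR_109595 (-0.14), and stimulation in WT of OCR_47818 (-0.015). Of 63 values of named regions past an adjusted p of 0.05, 1104 recomputed values stayed past it in the same direction, 105 did not and 4 were these reversals; for values not past it, 35 recomputed ones were and 1806 were not. Over all tested regions loess moved the split of higher and lower calls from 411 and 2827 to 907 and 658 (genotype ex vivo), from 813 and 14119 to 1638 and 2449 (stimulated), from 12386 and 1625 to 2229 and 1924 (stimulation in WT) and from 2113 and 442 to 709 and 718 (in Ikzf1-cko). Weak regions, the 23 untested ones above all, are limited by depth.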

Other observations

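Lef1 and Satb1, a pair of thymocyte factors that act upstream of the CD4 and CD8 choice, were less accessible in Ikzf1-cko Treg ex vivo at 11 of 28 and 9 of 17 tested regions by edgeR at an adjusted p under 0.05, as were 12.7% of all tested regions. This did not hold for the list of 18 genes, of whose 287 regions 35 passed as lower (12.2%) and 31 as higher (10.8%). Tcf7 had 0 of 14 lower, and Ets1 had 0 of 42 lower and 10 higher. In stimulated Treg Lef1 had 8 higher and 8 lower and Satb1 1 and 5 (20.4% and 30.7% of all tested regions passed as higher and lower). Gata3, which acts with ThPOK, had 4 of 16 tested regions higher in Ikzf1-cko ex vivo (8.78% of all were) and 8 stimulated, where 2 were lower. Of the 287 tested regions in the windows of the 18 other lineage genes, 19 had an interaction that passed as higher in Ikzf1-cko (6.62%, near the 5.66% of all tested regions) and 2 as lower (0.697% against 1.82%).

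The summed level of the erythroid start regions, which rests on Gata1 alone, was 11.9 to 15.2 FPKM in WT ex vivo and 8.56 to 9.78 in Ikzf1-cko ex vivo, and that of the myeloid list, which rests on Cd14 alone, was 5.38 to 8.44 and 7.22 to 8.06. When stimulated they were 7.29 to 14.7 and 14.3 to 15.5 for Gata1, and 6.85 to 7.58 and 7.75 to 9.69 for Cd14. T cell start regions summed to 101 to 111 FPKM in WT ex vivo, 100 to 110 in Ikzf1-cko ex vivo, 70.0 to 86.4 in WT stimulated and 90.2 to 98.1 in Ikzf1-cko stimulated, and Treg start regions to 175 to 187, 198 to 224, 127 to 176 and 179 to 193.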
